A study of Saccharomyces cerevisiae with 2 samples.

Results

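A divergent intergenic region is the stretch between adjacent genes that are read away from each other, so that both coding starts face the same gap. Divergent gaps of 100 to 1500 bp between protein-coding genes of the budding yeast *Saccharomyces cerevisiae* were described here, 1370 of the 5279 gaps of that length on chromosomes I to XVI. A gap was chosen where the left gene lay on the minus strand and the right gene on the plus strand of the R64 (sacCer3) annotation, with W or C in its systematic name giving the strand. Accessibility was not used to choose them. The other gaps were 2610 tandem ones, with both genes on the same strand, and 1299 convergent ones, which hold gene ends only. Each divergent gap is named here by its left and right gene, and every coordinate counts from 1 in sacCer3.

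The strains compared were the temperature-sensitive Hsp90 strain with allele G170D (G170D) and the wild type (WT), both of the laboratory background W303. Cells of both strains were grown in rich medium (YPD) at 30 °C between optical densities of 0.25 and 0.65 and were then filtered into medium at 37 °C for 15 min before nuclei were isolated and treated with DNase I. The study asked how chromatin depends on Hsp90, a chaperone that keeps many signalling proteins and transcription regulators in a working state. There was 1 library per strain, each a single deposited list of hotspots, which are stretches that DNase I cut readily. No p-value between strains is therefore given, no replicate spread exists for any value, and "more" and "fewer" compare these libraries only. No library from before the shift was used, so a difference already present at 30 °C and one that followed the shift cannot be told apart. The labels do not say how the allele is carried, and a hotspot list holds no sequence in which it could be checked.

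In yeast, the nucleosomes next to a coding start are usually arranged around a depleted stretch where transcription factors and the polymerase gain access, and DNase I cuts such stretches readily. A divergent gap carries the upstream regions of both of its genes, either as separate depleted stretches or as 1 shared stretch, and some pairs, such as the histone genes and GAL1 with GAL10, are known to be regulated together from it. Convergent gaps carry no promoter of either neighbour.

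There were fewer hotspots in the G170D list than the 7050 of the WT list, at an unknown read depth in each. Hotspots that met a divergent gap numbered 1221 in G170D (20.4% of the list) and 1292 in WT (18.3%). Divergent gaps made up 6.15% of the annotated or called genome and held 14.5% of the hotspot length in G170D and 13.6% in WT. Hotspots of divergent gaps ranked high within their own lists by the authors' score. Their median percentile was 72.5 in G170D and 74.0 in WT, beside 65.2 and 66.7 for hotspots of tandem gaps and 61.0 and 63.5 for those of convergent gaps. Of the top 10% of each list by score, 280 of 599 G170D hotspots (46.7%) and 273 of 707 WT hotspots (38.6%) met a divergent gap. More of them met a tandem gap, 305 in G170D (50.9%) and 337 in WT (47.7%), beside 31.3% and 29.4% of the whole lists. A convergent gap was met by 92 in G170D (15.4%) and 116 in WT (16.4%). A hotspot can meet gaps of more than 1 kind.

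A gap was called open where at least 1 bp of it lay in a hotspot. In G170D 1139 of 1370 divergent gaps were open (83.1%, 95% Wilson interval 81.1 to 85.0), and in WT 1204 (87.9%, 86.0 to 89.5). The intervals cover counting error over gaps only, and gaps of 1 library are not replicates. Open tandem gaps made up 71.1% in G170D and 78.1% in WT, and open convergent gaps 49.9% in G170D and 57.6% in WT. By length, hotspots covered 484 kb of divergent gap in G170D (65.2%) and 521 kb in WT (70.2%). The divergent median was 283 bp per gap in G170D and 310 bp in WT, in gaps with a median length of 485.5 bp. Thus most divergent gaps were accessible in both libraries, and the G170D list covered somewhat less of them. The whole lists also differed, with 3326855 bp of hotspot in G170D and 3831421 bp in WT. Covered length in G170D was 0.929 times that in WT for divergent gaps, 0.899 times for tandem and 0.847 times for convergent gaps.

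**Figure D1:**
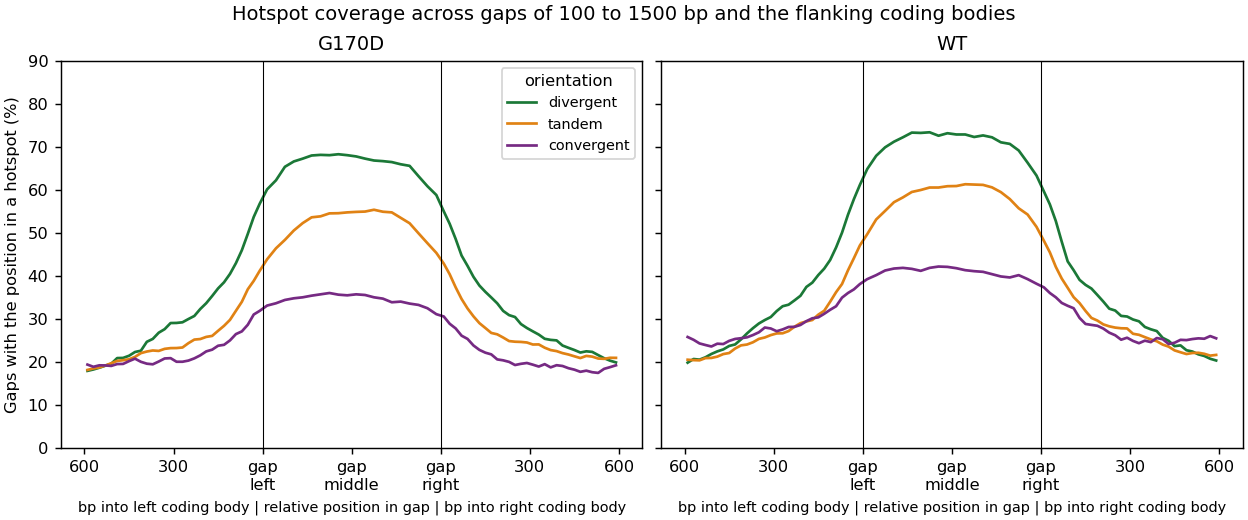
The share of gaps (%, vertical axis) with a hotspot at each position is drawn across the left coding body, the gap scaled to a common length and the right coding body, for G170D (left) and WT (right). The line of divergent gaps stood above those of tandem and convergent gaps within the gap, at 68.1% in G170D and 73.2% in WT near the gap's middle. At 590 bp into the left body the shares were 17.9% for divergent and 19.4% for convergent gaps in G170D, and 19.8% and 25.8% in WT.

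Inside divergent gaps coverage was lowest next to the coding starts in both strains. At 2.5% and 97.5% of the gap length it was 60.1% and 58.8% in G170D, and 64.9% and 63.4% in WT. Near the middle it was 68.1% in G170D and 73.2% in WT. Of the positions 150 bp upstream of a coding start, 68.4% lay in a hotspot in G170D and 73.5% in WT. At 25 bp upstream the shares were 60.5% in G170D and 65.4% in WT, and at 500 bp, in the gaps long enough, 65.5% and 71.4%. Upstream of tandem starts the shares at 150 bp were 55.5% in G170D and 61.9% in WT. Inside the bodies coverage declined on both sides, and 290 bp past the start it was 29.1% on the left and 27.9% on the right in G170D, against 31.8% and 30.6% in WT.

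Divergent gaps shorter than 400 bp were open less often than longer ones. The step between the strains was found in each of the 5 length classes. A longer gap can meet a hotspot more easily, since 1 bp is enough, and the covered share ran differently. In G170D it was highest at 100 to 249 bp (69.8%) and lowest at 1000 to 1500 bp (61.1%). The WT covered share was also highest in the shortest class and lowest in the longest. Divergent gaps of 100 to 249 bp were open in 78.3% of cases in G170D and 83.3% in WT (n = 221), and those of 250 to 399 bp in 74.6% and 81.6% (n = 343). Gaps of 600 to 999 bp were open most often, in 90.1% of cases in G170D and 95.2% in WT (n = 394). In the share of open gaps, the lead of divergent over tandem gaps seen in the short classes was not seen at 1000 to 1500 bp. In that class 87.4% of divergent gaps were open in G170D and 89.8% in WT (n = 127), against 86.9% and 90.7% of tandem gaps (n = 183). By covered length the lead remained there, since hotspots covered 52.8% of tandem gap length in G170D and 59.1% in WT. Near the limits of length used to choose the gaps, 13 divergent gaps of 50 to 99 bp were open in 46.2% of cases in G170D and 53.8% in WT, and 17 gaps of 100 to 149 bp in 58.8% and 70.6%. At the long limit, all 9 gaps of 1401 to 1500 bp were open in both strains, as were 94.4% of 18 gaps of 1501 to 1600 bp.

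**Figure D2:**
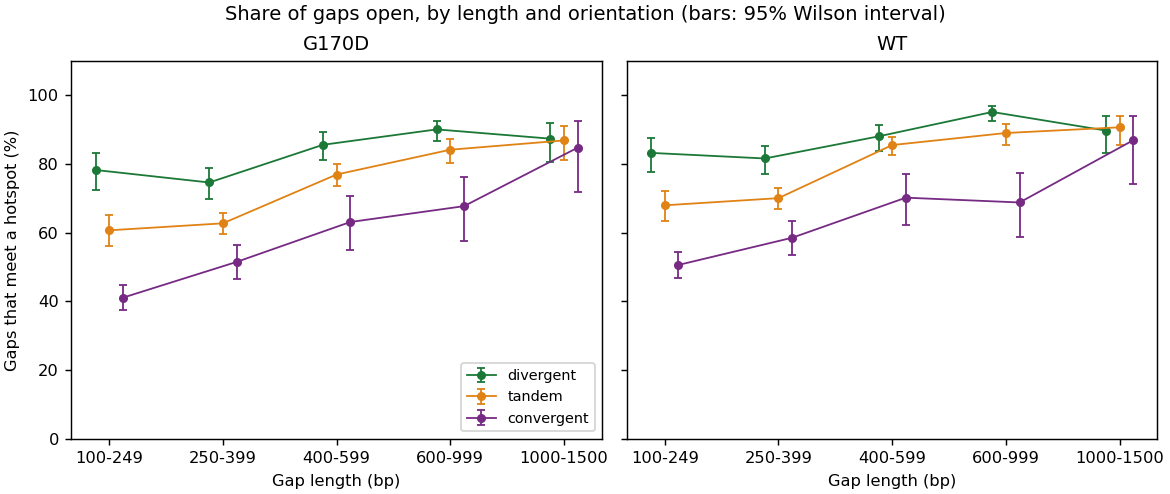
Points give the share of gaps that meet a hotspot (%, vertical axis) in 5 length classes (bp, horizontal axis) for divergent, tandem and convergent gaps, in G170D (left) and WT (right), and bars are 95% Wilson intervals over gaps. In the class of 100 to 249 bp the divergent share was 78.3% in G170D and 83.3% in WT, against 41.1% and 50.6% for convergent gaps.

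The gaps open in only 1 strain were few, and more of them were open in WT. Of the 1370 divergent gaps, 1099 were open in both strains (80.2%), 40 in G170D alone (2.92%), 105 in WT alone (7.66%) and 126 in neither (9.20%). Over all 5279 gaps the share open in G170D alone was 3.77% and the share open in WT alone 10.4%, so the divergent shares were somewhat below this background. These counts depended on the score threshold and list length. With the upper 50% of each list by score, 82 were open in G170D alone and 150 in WT alone, and with lists of equal length 57 and 77. Of the divergent gaps open in WT, 91.3% (89.6 to 92.7) were also open in G170D, beside 85.8% of tandem and 79.5% of convergent gaps.

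Coverage per gap was equal to the base pair almost only where hotspots of both strains covered the whole gap. Among the 1244 divergent gaps open in either strain, 557 had fewer bp covered in G170D (44.8%), 280 had more (22.5%) and 407 had the same number (32.7%). The median difference, G170D minus WT, was 0 bp, with quartiles of -70.3 and 0 bp and a mean of -29.5 bp. Over the gaps whose coverage was not equal, the median difference was -33 bp. The 557 gaps lost a median of 82 bp each, 73.7 kb in all, and the 280 gaps gained a median of 90 bp each, 37.0 kb in all. At least 2-fold fewer bp were covered in G170D in 187 of the open divergent gaps (15.0%), beside 19.8% of all open gaps. At least 2-fold more bp were covered in 68 (5.47%), beside 7.66% of all open gaps. These counts include the gaps open in 1 strain only, and among gaps open in both 82 were at least 2-fold lower and 28 at least 2-fold higher. Of the 407 equal values, 404 came from gaps covered end to end in both strains, where covered bp cannot differ. They also hold the median difference at 0 bp. Gaps covered end to end numbered 535 in G170D (39.1%) and 567 in WT (41.4%).

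End-to-end coverage differed in both directions. The 163 gaps covered whole in WT but not in G170D kept a median of 73.0% of their length in G170D, and 14 of them were closed there. The 131 gaps covered whole in G170D but not in WT had a median of 75.7% covered in WT, and 13 of them were closed there.

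**Figure D3:**
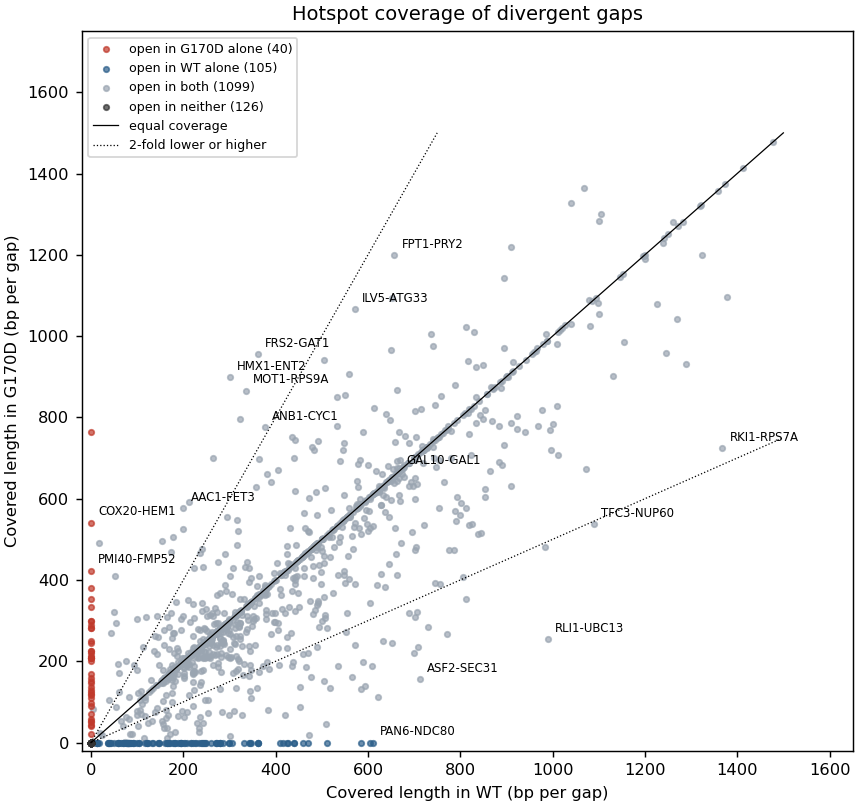
Each point is 1 of 1370 divergent gaps, with the bp covered in WT on the horizontal axis and in G170D on the vertical axis, coloured by the strain in which it was open. Most points lay on or near the line of equal coverage, more of the others lay below it (557) than above it (280), and the gaps open in 1 strain lie on the axes.

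The largest losses among gaps open in both strains were long stretches. Between RLI1, an iron-sulphur protein that splits ribosomes for recycling, and UBC13, a ubiquitin-conjugating enzyme, the gap (chromosome IV, 628535 to 629875, 1341 bp) had 254 bp covered in G170D and 990 bp in WT. The G170D hotspot there, at 629622 to 629886, lay at the UBC13 end, and the part towards RLI1 that the WT hotspot held was outside it. Between RKI1, an enzyme of the pentose phosphate pathway, and RPS7A, a small-subunit ribosomal protein (XV, 504329 to 505793), 725 bp were covered in 2 hotspots in G170D and 1368 bp in 1 hotspot in WT. Between TFC3, a subunit of the polymerase III factor TFIIIC, and NUP60, a nuclear pore protein (I, 151167 to 152256), 537 bp were covered in 2 hotspots in G170D, against the whole 1090 bp in WT. In these long gaps coverage near at least 1 coding start remained in G170D while a middle or far stretch did not.

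The ASF2-SEC31 gap (IV, 106495 to 107207), with SEC31 coding for a coat protein of secretory vesicles, had 157 bp covered in G170D and all 713 bp in WT. Its G170D hotspot ranked low in its own list, at percentile 2.47. The GNT1-PMT3 gap (XV, 915095 to 916029), between genes for glycosyltransferases of the secretory pathway, had 113 bp covered in G170D and 622 bp in 2 hotspots in WT. There the hotspot on the PMT3 side was found in WT and not in G170D.

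The largest gains were mostly gaps that G170D hotspots covered from end to end. Between HMX1, a heme oxygenase, and ENT2, an endocytic adaptor (XII, 553678 to 554577), all 900 bp were covered in G170D and 301 bp, at the ENT2 end, in WT. Between FRS2, a subunit of phenylalanyl-tRNA synthetase, and GAT1, an activator of nitrogen-regulated genes (VI, 95011 to 95965), all 955 bp were covered in G170D and 361 bp, at the GAT1 end, in WT. In both gaps the WT hotspot reached only the right-hand gene, and the G170D hotspot reached both coding starts.

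ILV5, an enzyme of branched-chain amino acid synthesis, and ATG33, a mitophagy protein, flanked a gap (XII, 839254 to 840320) with all 1067 bp covered in G170D and 571 bp in WT. Between MOT1, which removes TATA-binding protein from DNA, and RPS9A (XVI, 404084 to 404949), 866 bp were covered in 1 G170D hotspot, against 336 bp in 2 WT hotspots. The FPT1-PRY2 gap (XI, 462697 to 463958) had 1200 bp covered in 1 G170D hotspot and 657 bp in 2 WT hotspots. In the MOT1-RPS9A and FPT1-PRY2 gaps the WT hotspots stood at either side and the middle was outside them.

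Gaps open in WT alone held weakly ranked and mostly narrow hotspots. Their 105 hotspots of highest rank had a median percentile of 29.1 in the WT list and a median width of 272 bp, and 25 of them were in the lowest 10% of that list. The median covered length was 179 bp, and in 84 of the 105 gaps the WT hotspot overlapped no G170D hotspot even outside the gap. The widest were larger. PAN6-NDC80 (IX, 77284 to 78073), with NDC80 coding for a kinetochore subunit, had 0 bp covered in G170D and 611 bp in WT. YHC1-ECM38 (XII, 725417 to 726068), with YHC1 coding for a protein of the U1 snRNP, had 0 bp covered in G170D and 605 bp in WT, at percentile 73.0 of the WT list. The other gaps that led this group all had 0 bp in G170D, with 586 bp covered in WT between RAD59, a recombination protein, and USO1, a vesicle tether, 512 bp between PEX29 and DIG2, and 471 bp between PRP43, an RNA helicase, and COQ8.

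Gaps open in G170D alone held wider and higher-ranked hotspots within the G170D list. Their 40 hotspots had a median percentile of 77.4 in that list and a median width of 817.5 bp. In 17 of the 40 gaps the G170D hotspot overlapped a WT hotspot outside the gap, and in the 23 others, which had no such overlap, the median percentile was 53.3. COX20-HEM1 (IV, 926911 to 927451) had all 541 bp covered in G170D and 0 bp in WT. HEM1 codes for the first enzyme of heme synthesis, and the G170D hotspot of 2311 bp ran 1499 bp into it, ranked at percentile 97.1. That hotspot overlapped a WT hotspot outside the gap, and the nearest WT hotspot lay 225 bp from the gap. PMI40-FMP52 (V, 159119 to 159579), with PMI40 coding for the isomerase that makes mannose 6-phosphate, had 423 bp covered in G170D and 0 bp in WT. POT1-BNR1 (IX, 41445 to 41824), between a peroxisomal thiolase and a formin, had all 380 bp covered in G170D and 0 bp in WT. RTG3-SFT2 had 354 bp covered in G170D and 0 bp in WT, and RTG3 codes for a transcription factor of mitochondria-to-nucleus signalling. The most bp covered in G170D alone, 763 of 811 bp against 0 bp in WT, lay between genes without standard symbols, YML083C and YML082W (XIII, 101051 to 101861), and this gap was named after its values were seen.

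Near chromosome ends more gaps were open in G170D than in WT, while covered bp differed little. Of the 58 divergent gaps within 30 kb of an end, 28 were open in G170D (48.3%, 35.9 to 60.8) and 24 in WT (41.4%, 29.6 to 54.2). Of these gaps 8 were open in G170D alone (13.8%) and 4 in WT alone (6.90%), whereas of the 1312 gaps farther in 2.44% were open in G170D alone and 7.70% in WT alone. The intervals of the open shares overlap, but they cover counting error over gaps only. They do not compare the strains, since both lists score the same 58 gaps. Of the length, 18.7% was covered in G170D and 18.0% in WT. Of the 32 open gaps there, 17 had fewer and 13 more bp covered in G170D, with a median difference of -3.5 bp. The 8 gaps included FIT3-FRE5 and RTG3-SFT2, described here for their size, and ARR2-ARR3, AQY3-DAK2, MHT1-MMP1 and TOG1-PUG1, named after their values were seen. ARR2 and ARR3 code for an arsenate reductase and an arsenite exporter, and MHT1 and MMP1 for a methyltransferase and a permease that use S-methylmethionine.

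The sides of a gap were compared with windows of 100 bp next to each coding start, in the 1286 divergent gaps of at least 200 bp. Both windows met a hotspot in 727 gaps in G170D (56.5%) and in 789 in WT (61.4%). Only 1 of the windows did so in 310 gaps in G170D and in 315 in WT. Of the 789 gaps open at both sides in WT, 638 were open at both sides in G170D (80.9%), 112 at 1 side, 6 in the middle alone and 33 were closed. Of the 315 gaps open at 1 side in WT, 176 were open at 1 side in G170D, 72 at both, 15 in the middle alone and 52 were closed. The open side was the opposite one in 5 of those 176 gaps. Losses were spread over both sides of the map, with 126 left and 136 right windows open in WT and closed in G170D, and 69 left and 64 right windows the other way.

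Where 1 hotspot met the gap in each strain, those edges that lay inside the gap in both usually lay farther from the genes in G170D. Edges in tandem and convergent gaps were not measured, so the shift cannot be called particular to divergent gaps. Such edges were sought in 953 of the 958 gaps with 1 hotspot in each strain, leaving out 5 whose hotspots did not overlap between the strains. On either side, most of the 953 gaps had no edge inside the gap in both strains and were not compared. Of 168 left edges that lay inside the gap in both strains, 126 lay farther from the gene in G170D, 40 nearer and 2 at the same base. The median distance from the left coding start was 119 bp in G170D and 110.5 bp in WT, and the median of the paired shifts was 19.5 bp (quartiles 1.5 and 52.0 bp). Of 186 right edges, 123 lay farther from the gene in G170D, 58 nearer and 5 at the same base. Their median distance was 145 bp in G170D and 125.5 bp in WT, with a median paired shift of 17.5 bp (quartiles -5.75 and 48.0 bp). The shifts were small beside the gaps, and 43.5% of left and 40.9% of right edges lay within 25 bp of each other. In the 42 of these 953 gaps where all edges lay inside, both edges moved inward in 24, both outward in 2 and the edges moved in opposite senses in 15, and the median hotspot width was 264.5 bp in G170D and 297 bp in WT.

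**Figure D4:**
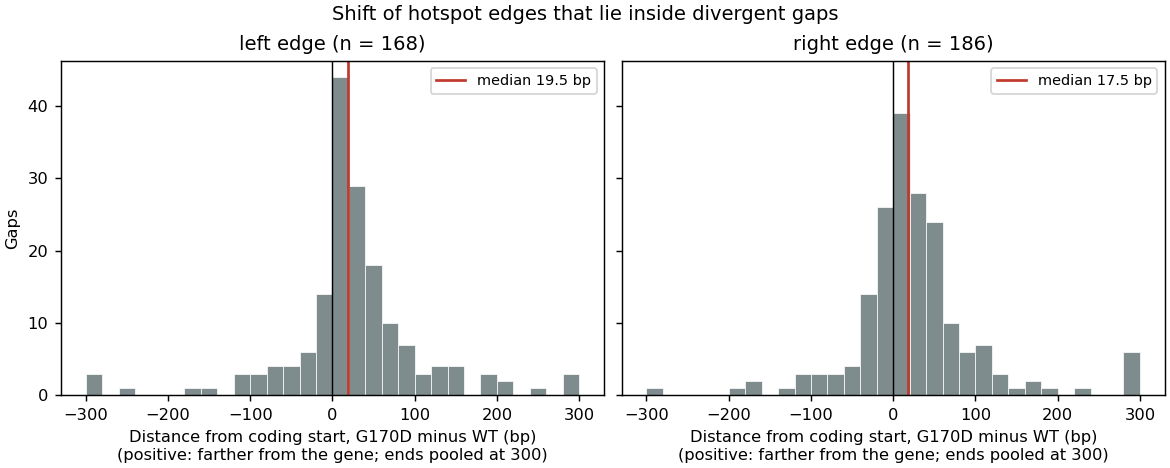
Histograms give the number of gaps by the shift of the hotspot edge (bp, G170D minus WT distance from the coding start, positive values farther from the gene) for left edges (n = 168) and right edges (n = 186) that lay inside the gap in both strains, in gaps with 1 overlapping hotspot each. The red lines mark the medians of 19.5 and 17.5 bp, and shifts beyond 300 bp are pooled in the outer bars.

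Hotspots of divergent gaps often ran on into the genes. The first coding base was covered at 1571 of the 2740 flanking starts in G170D (57.3%, 55.5 to 59.2) and at 1692 in WT (61.8%, 59.9 to 63.6). Both starts of a gap were covered in 564 gaps in G170D and 607 in WT. Where a start was covered, the hotspot reached a median of 201 bp into the gene in G170D (quartiles 78.0 and 402 bp) and 195.5 bp in WT (76.0 and 383 bp). At the 1367 starts covered in both strains the median paired difference was -7 bp, with the hotspot reaching less far in G170D at 772 starts, farther at 402 and equally far at 193. Whole coding bodies next to a divergent gap were covered 283 times in G170D and 266 times in WT.

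The gap and the start of its genes differed together. In the 187 gaps with at least 2-fold fewer bp covered in G170D, the first 300 bp of both bodies together had a median of 0 bp covered in G170D and 169 bp in WT, with less in G170D in 135 gaps and more in 21. In the 68 gaps with at least 2-fold more bp covered in G170D, these medians were 300 bp in G170D and 34.5 bp in WT, with more in G170D in 52 gaps and less in 10. In the 989 other open gaps the medians were 300 bp in both strains, with less in G170D in 56.9% and more in 31.5%. A single hotspot often spans the gap and a body, so these measures share their intervals.

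Most gaps open in both strains met a single hotspot in each, 958 of 1099. Several hotspots in G170D stood against 1 in WT in 54 gaps (4.91%), beside 3.75% of all gaps open in both. The reverse was found in 56 gaps (5.10%), beside 3.8% of all such gaps. Neighbouring hotspots of either list were never closer than 151 bp, so narrower closed stretches could not appear. In 42 of the 54 gaps a stretch inside the single WT hotspot was closed in G170D between its pieces, with a median of 207.5 bp (153 to 553 bp), and in 27 of the 56 gaps a G170D hotspot covered a stretch that was closed between WT pieces, with a median of 227 bp (155 to 530 bp). In the remaining gaps the extra piece lay outside the hotspot of the other strain.

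The widest stretch closed in G170D alone between pieces was the 553 bp in the TFC3-NUP60 gap, followed by 427 bp in RKI1-RPS7A. KSP1-SAM35 and SFB3-TRA1, picked after their values were seen, followed with 378 bp and 377 bp, and TRA1 codes for a large subunit shared by the coactivators SAGA and NuA4. The RPB5-CNS1 gap (II, 549010 to 549770), between a subunit shared by the RNA polymerases and a cochaperone of Hsp90, had 393 bp covered in 2 hotspots in G170D and 746 bp in 1 hotspot in WT. The RPL19B gap, with YBL028C on its left (II, 167839 to 168422), met 3 hotspots with 131 bp covered in G170D and 1 hotspot over all 584 bp in WT. Among stretches covered in G170D between WT pieces, the widest were 530 bp in MOT1-RPS9A and 450 bp in FPT1-PRY2, with 462 bp in PAN1-EGH1, which was named after its value was seen.

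**Figure D5:**
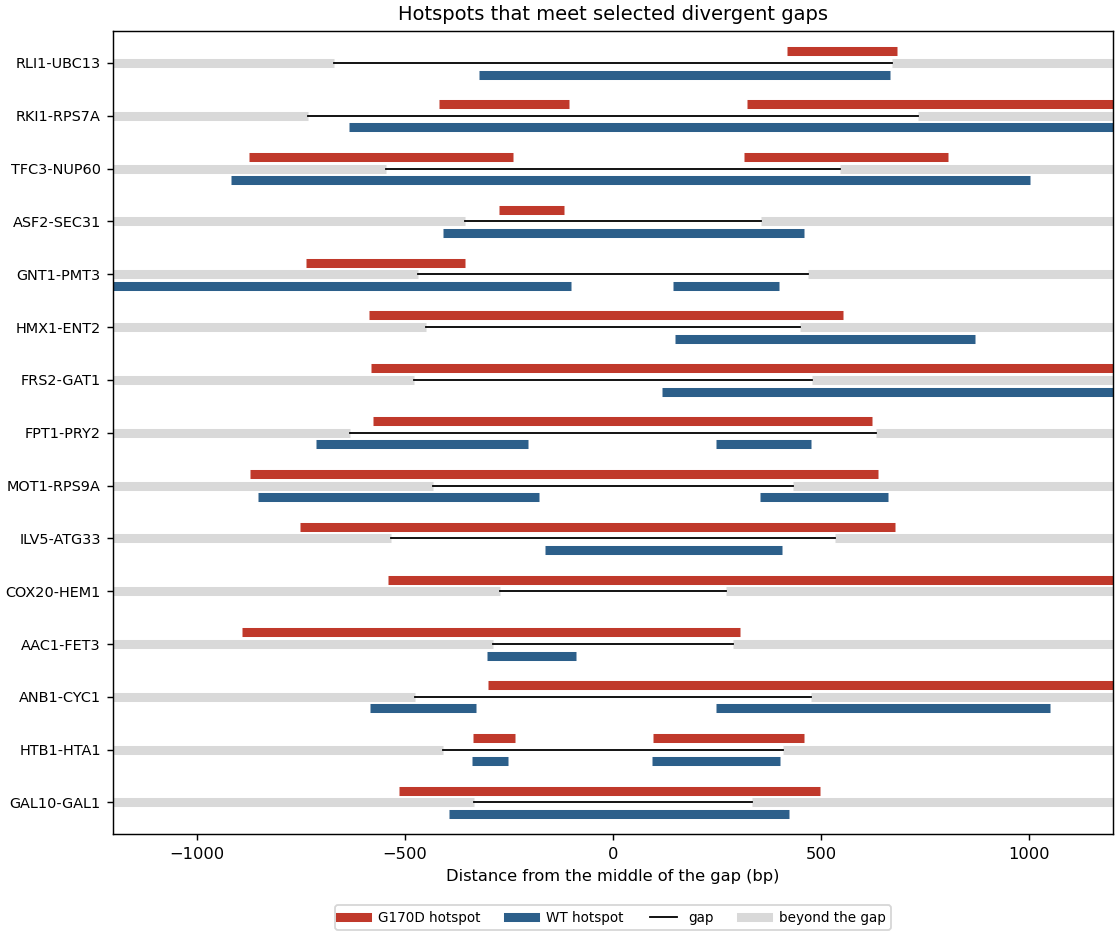
Hotspots of G170D (red, above the line) and WT (blue, below it) are drawn to scale for 15 divergent gaps, with distance from the middle of the gap in bp on the horizontal axis. The thin line is the gap and grey bars are the sequence beyond it. The TFC3-NUP60 gap shows 2 G170D hotspots against 1 in WT, MOT1-RPS9A shows 1 against 2, and only a G170D hotspot met the COX20-HEM1 gap. Hotspots that lie wholly outside the gap are not drawn.

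Divergent gaps next to the genes of 14 functional lists were counted in the same way, and a gap counts for a list where either neighbour belongs to it. The lists were drawn up with earlier results of these data known, so they are descriptions and no list was tested. For all 1244 open divergent gaps the corresponding shares were 44.8% with fewer and 22.5% with more bp covered in G170D and a median difference of 0 bp. At least 2-fold fewer bp were covered in 15.0% of them and at least 2-fold more in 5.47%. Of all 1370 divergent gaps, 80.2% were open in both strains.

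Histone gaps were open in both strains and differed little in covered length. All 6 gaps next to a histone gene were open in both strains, 2 with fewer and 3 with more bp covered in G170D. The core histones are encoded by 4 divergent pairs. HTA2-HTB2, for histones H2A and H2B (II, 235793 to 236491), had all 699 bp covered in both strains, although the hotspot was 924 bp wide in G170D and 4067 bp in WT. HTB1-HTA1, the other H2A and H2B pair (IV, 914713 to 915529), met 2 hotspots in each strain, with 416 bp covered in G170D and 397 bp in WT, and the stretch between them was closed in both. HHT2-HHF2, for histones H3 and H4 (XIV, 576051 to 576726), had all 676 bp covered in G170D and 664 bp in WT. HHF1-HHT1, the other H3 and H4 pair (II, 255685 to 256330), had 185 bp covered in G170D and 275 bp in WT, in both strains at the HHT1 end. Outside the core pairs, the gap between HTZ1, for the variant H2A.Z, and PLB3 had 1365 bp covered in 1 G170D hotspot and 1068 bp in 2 WT hotspots, and HHO1-NAN1, next to the linker histone gene, 527 bp in G170D and 605 bp in WT. The sources used here do not say how reads that match both copies of such genes were placed.

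Gaps next to genes of cytosolic ribosomal proteins were nearly all open. Of 65 gaps 62 were open in both strains, 1 in G170D alone, 0 in WT alone and 2 in neither. As many had fewer bp covered in G170D (20) as had more (20), and hotspots covered 41.7 kb of them in G170D and 41.2 kb in WT. The median covered share of an open gap was 100% in G170D and 98.7% in WT, beside 97.2% and 97.8% for all open divergent gaps. In 5 gaps both neighbours were such genes. RPS22A-RPL39 had 630 bp and RPL13B-RPS16A 720 bp covered in each strain, the whole gap in both cases. RPL24A-RPL30 had 1089 bp covered in G170D and 1078 bp in WT, and RPS16B-RPL13A 313 bp in G170D and 317 bp in WT. RPS15-RPP2A differed more, with all 719 bp covered by 1 hotspot in G170D and 546 bp by 2 hotspots in WT. The gap open in G170D alone was that of RPS23A, next to YGR117C, with 289 bp covered in G170D and 0 bp in WT. Gaps of ribosomal protein genes were thus nearly all open, 96.9% in G170D and 95.4% in WT, with similar coverage in both libraries. Of all divergent gaps 83.1% were open in G170D and 87.9% in WT. The list was not matched for length, and divergent gaps of 600 to 999 bp were open in 90.1% and 95.2% of cases.

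Gaps of genes that assemble the ribosome, and of mitochondrial ribosomal proteins, had shares with fewer bp in G170D not far from that of all open divergent gaps. Of 50 open ribosome assembly gaps (55 in all), 25 had fewer (50%) and 8 more bp covered in G170D (16.0%), and 67.1% of the length was covered in G170D and 76.0% in WT. Of 33 open mitochondrial ribosomal protein gaps (36 in all), 17 had fewer (51.5%) and 4 more (12.1%), with 69.7% covered in G170D and 76.3% in WT. The ATP5-BFR2 gap, where BFR2 acts in small-subunit assembly and ATP5 is a subunit of ATP synthase, had 354 bp covered in G170D and all 812 bp in WT. AIP1-UTP15, where UTP15 belongs to the small-subunit processome, had 189 bp covered in G170D and all 535 bp in WT. FMN1-MRPL7, with MRPL7 for a large-subunit mitochondrial ribosomal protein, had 161 bp covered in G170D and 565 bp in WT. Other gaps went the other way or did not differ. RSM19-DBP6 had 209 bp covered in G170D and 0 bp in WT, RRP3-SSF1 had all 297 bp covered in both, and NSA2-LCP5, between assembly factors on both sides, met no hotspot in either.

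Of 27 open gaps of cell cycle and replication genes (32 in all), 19 had fewer bp covered in G170D (70.4%), 1 had more (3.70%) and 7 were equal. Hotspots covered 48.1% of their length in G170D and 60.1% in WT. At least 2-fold fewer bp were covered in 6 of the open gaps (22.2%), beside 15.0% of all open divergent gaps. At least 2-fold more were covered in 0 of them, beside 5.47%. CDC45-LCL2, with CDC45 for a factor of the replicative helicase, had 198 bp covered in G170D and 437 bp in WT. RFA1-SEN34, with RFA1 for the large subunit of the single-strand binding protein RPA, had 109 bp covered in G170D and all 346 bp in WT. Of 19 open proteasome gaps (21 in all), 10 had fewer (52.6%) and 2 more bp covered in G170D (10.5%), with 62.4% of the length covered in G170D and 73.9% in WT. RPN6-PMT1 had 0 bp covered in G170D and 361 bp in WT, where RPN6 codes for a lid subunit of the regulatory particle, although the WT hotspot ranked at percentile 13.3. PRE6, for a core subunit, next to YOL038C-A, had 135 bp of its gap covered in G170D and all 315 bp in WT.

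Gaps of heat-shock and general stress genes had similar covered shares in the libraries, both of which followed a shift to 37 °C, and single gaps differed in both directions. Of 16 gaps next to genes of the Hsf1 and chaperone list, 14 were open in both strains, 3 had fewer and 4 more bp covered in G170D, and coverage was 86.9% in G170D and 88.1% in WT. YIH1-TAH1, with TAH1 for a cofactor of Hsp90, had all 168 bp covered in G170D and 0 bp in WT. The RPB5-CNS1 gap belongs to the same list, with 393 bp covered in G170D and 746 bp in WT. Of 16 gaps next to genes of the Msn2 and Msn4 stress list, 14 were open in both, 3 had fewer and 5 more bp covered in G170D, and coverage was 67.5% in G170D and 67.9% in WT. PRX1-KIP1, with PRX1 for a mitochondrial peroxiredoxin, had 618 bp covered in G170D and 441 bp in WT. RIO1-GCY1, next to the glycerol dehydrogenase gene GCY1, had 163 bp covered in G170D and 342 bp in WT, and the G170D hotspot lay between the WT hotspots and met neither.

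Of 9 iron regulon gaps, 4 had more bp covered in G170D, 1 had fewer, 3 were equal and 1 was open in neither strain. Over the list, 82.2% of the length was covered in G170D and 60.0% in WT. The gap between AAC1 and FET3, the multicopper oxidase of high-affinity iron uptake (XIII, 388245 to 388821), had all 577 bp covered in G170D and 200 bp, at the AAC1 end, in WT. FIT3-FRE5, between a cell wall protein that holds siderophores and a member of the ferric reductase family (XV, 1061056 to 1061563), had 333 bp covered in G170D and 0 bp in WT. The HMX1-ENT2 gap belongs here as well, and ISU2-HER1, next to a scaffold gene of iron-sulphur cluster assembly, had all 740 bp covered in G170D and 658 bp in WT. The gaps at HMX1, FET3 and FIT3 were the 3 with at least 2-fold more bp covered, with differences of 599, 377 and 333 bp out of 1391 bp gained over the list.

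Sugar and fermentation genes offered few divergent gaps, and most differed by little. GAL10-GAL1, the textbook shared promoter of galactose use (II, 278353 to 279020), had all 668 bp covered in both strains grown without galactose, by a hotspot of 1012 bp in G170D and 817 bp in WT. An antisense RNA gene is annotated in that gap. SCM3-RGT2, next to a glucose sensor gene, had 850 bp covered in 2 hotspots in G170D and 835 bp in 1 hotspot in WT, and HXT4-AHT1, next to a hexose transporter gene, 207 bp in G170D and 243 bp in WT. Of the 7 glycolysis and fermentation gaps, ADH2-UBP15 had 70 bp covered in G170D and 0 bp in WT, and the gap of ADH5 with YBR144C 117 bp in G170D and all 212 bp in WT. ADH2 and ADH5 code for alcohol dehydrogenases.

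ANB1 and CYC1, a translation factor gene used with little oxygen and the gene for cytochrome c, share a gap (X, 525382 to 526334) that is a known oxygen- and heme-regulated pair. It had 777 bp covered by 1 hotspot in G170D and 376 bp by 2 hotspots in WT. The WT hotspots lay at either gene and the G170D hotspot covered the middle and the CYC1 side.

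Of 25 open amino acid synthesis gaps (29 in all), 13 had fewer (52.0%) and 5 more bp covered in G170D (20.0%), with 70.6% of the length covered in G170D and 75.7% in WT. ARO4-SPO23, with ARO4 for the first step of aromatic amino acid synthesis, had 18 bp covered in G170D and 473 bp in 2 hotspots in WT, and CIR1-SER2, with SER2 for the last step of serine synthesis, had 74 bp in G170D and all 254 bp in WT. The G170D hotspot in ARO4-SPO23 was itself 18 bp wide, close to the narrowest of the list at 10 bp. MRM1-HIS3 had 22 bp covered in G170D and 0 bp in WT, where the WT hotspot began at the first base of HIS3. Of 9 sterol synthesis gaps 8 were open in both, and COQ2-MVD1 had 104 bp covered in G170D and 38 bp in WT, while ERG24-PRM1 had 443 bp in G170D and all 505 bp in WT. The SNO and SNZ genes of vitamin B6 metabolism form 3 divergent pairs. SNO1-SNZ1 had 297 bp covered in G170D and 215 bp in WT, and the near-identical pairs SNO2-SNZ2 and SNO3-SNZ3, close to chromosome ends, met no hotspot in either strain.

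A tRNA gene lay in 48 divergent gaps, and such genes are usually kept free of nucleosomes by polymerase III factors. These gaps were open in 89.6% of cases in G170D (77.8 to 95.5) and 93.8% in WT (83.2 to 97.9). All divergent gaps were open in 83.1% and 87.9% of cases, and those of 600 to 999 bp in 90.1% and 95.2%. Of the length of the gaps with a tRNA gene, 57.8% was covered in G170D and 60.9% in WT. That was below the 65.2% and 70.2% of all divergent gaps. Across the 16 chromosomes the covered length of divergent gaps in G170D was 0.864 times that in WT on chromosome VIII, the lowest ratio, and 1.05 times on chromosome III, the highest.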

How the data were processed

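DNase-seq libraries came from 1 culture of the G170D strain and 1 of WT. A limited DNase I digest of nuclei, a size selection and 101 sequencing cycles are stated per the labels' protocols. The build sacCer3, the aligner Bowtie 1.0.0 and FastQC 0.10.1 are stated per the submitters' processing notes. Each deposited file lists hotspot intervals of 1 sample with a score. The sources used here give neither the caller nor its threshold nor the meaning of the authors' score. The score therefore served only to rank hotspots within a list. Depth is unknown, and the number and width of called hotspots can move with depth and digestion.

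Gaps came from RefSeq coding bodies of assembly R64 (6002 genes, 0 without strand), which hold no untranslated regions, so a gap includes the untranslated ends. Of 1527 divergent gaps, 26 were shorter than 100 bp and 131 longer than 1500 bp. Covered bp and intervals were counted per gap with Python 3.11.15, numpy 2.4.6 and pandas 2.3.3, and Wilson intervals with scipy 1.17.1. The counting was tested on simulated lists over 1370 gaps, of which 100% were right.

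Members and gene lists were chosen with earlier results of these data known. Gaps named were the 5 largest losses and gains among gaps open in both strains and the 5 longest covered in each strain alone, where both genes have symbols, all pairs within a list, a set of well-known pairs, and up to 2 further gaps per list. Of these, URA3-TIM9 did not form a divergent gap of the length used. Alternatives changed the score threshold, list length, minimum coverage, merging, gap length, chromosome ends, annotation, RNA genes and fold. No genome sequence was used here, and a planned motif search was left out.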

Additional observations from a re-analysis of the deposited data

How the results depend on the processing

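Over 11 alternative settings, 43 of 46 recomputed values were scored as unchanged and 3 as moved. The tally is no measure of stability, since it includes the median difference and the merged counts, which were held in place as described below. A count was scored as unchanged within 1.5 times the value reported. This wide band took in 57 against 40 and 77 against 105 at equal list length. The median difference was scored so within its 95% order-statistic interval over gaps, which ran from 0 to 0 bp. A change of direction could not be scored, since counts have no sign and the reported median difference was 0 bp. With the upper 50% of each list by score there were 82 divergent gaps open in G170D alone (40 with all hotspots) and 103 with at least 2-fold more bp covered in G170D (68 with all hotspots), and a fold of 1.5 gave 113. The cause of the shift in the upper 50% was not tested, whereas a lower fold counts more gaps by construction. With lists of equal length, reduced by score to that of the shorter list, gaps open in G170D alone were 57 and gaps open in WT alone 77, against 40 and 105 with the full lists. The excess of gaps open in WT alone was thus smaller at equal list length. The median difference was 0 bp under each setting that recomputed it, but many gaps were covered end to end in both strains, which holds it at 0, so it says nothing about stability. Merging hotspots at most 50 bp apart changed no interval count, since neighbours were never closer than 151 bp. No paired analysis was possible because each strain gave 1 library, and no replicate could be left out. Depth is unknown, so a gap without a hotspot may be closed or may have too few reads for the caller.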
